A study of Mus musculus with 2 samples.

Results

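The Ighg2b, Ighg1 and Ighg3 section is a stretch of 70 kb in the constant region of Igh, the mouse locus of the immunoglobulin heavy chain, from 114.541 to 114.611 Mb of chromosome 12 in mm9. Its members are the pairs of a forward and a reverse restriction fragment, with midpoints at least 10 kb apart, in which 1 or both midpoints fall into this window. The rule, which used positions and no measured value, selected 6 of the 206 probed fragments and 605 of the 10415 pairs at this distance (5.81%).

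The constant region genes of Igh set the class of an antibody. In class switch recombination an activated B cell joins the switch region of Ighm, the IgM gene, to that of a gene farther along, such as Ighg1, and deletes the DNA between them. The join is preceded by transcription of both switch regions, from the intronic enhancer Emu upstream of Ighm and from an I promoter upstream of the gene that is chosen. The 3' regulatory region (3'RR), a group of enhancers beyond Igha at the far end of the constant genes, drives the I promoters. LPS with IL4 directs mouse B cells to Ighg1 and Ighe, and LPS alone to Ighg3 and Ighg2b, so Ighg1 is the IL4-induced gene among these 3 neighbours.

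Contacts were measured by 5C, in which crosslinked chromatin is cut with HindIII and ligated, and ligated pairs of fragments are amplified with primers on fragment ends and counted by sequencing. Both libraries came from CD43- splenic B cells of C57Bl/6 mice, cultured with LPS and IL4 (10 ng/ml) for 40 hours. They make up 1 group, and its 2 replicates are biological ones by the series' own design text; how many mice each came from is not given in the sources used here. No group without IL4 was at hand, so Ighg1 was compared with its neighbours in the same cells, and no change caused by IL4 was measured. The limma p-values below rest on the spread between these 2 libraries only. They draw the variance of each pair partly from the other pairs tested, which share primers. Such a p-value can thus be small where a pair's own replicates differ. Weibull p-values set pairs against other pairs of the same library. 5C counts hold no marker genes against which the labelled cell type could be checked.

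The libraries held 14503618 counts in replicate 1 and 17658603 in replicate 2, of which 3082248 and 5553647 lay in pairs at least 10 kb apart. Section pairs took 14.3% and 11.6% of these counts. The median section pair had 104 counts in replicate 1, with 95% Poisson limits of 85 and 126.0, and 161 in replicate 2, with limits of 137.1 and 187.9, which cover counting error only. 1 section pair was at 0 in replicate 1 and none in replicate 2. Each count was then set against a count modelled from the distance between the fragments and the yield of their primers over the whole table. The result is the log2 ratio of observed to modelled count, in which 0 is the modelled level and 1 is 2-fold above it. Across the 605 section pairs, which share primers and libraries, the log2 ratios of the 2 replicates correlated with Pearson's r = 0.67 (Spearman's rho = 0.62), compared with 0.55 (0.47) over all pairs.

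In the gene table at hand, which is on the assembly GRCm38.p6, the genes run along rising coordinates as Igha, Ighe, Ighg2c, Ighg2b, Ighg1, Ighg3, Ighd and Ighm. No mm9 gene annotation was used and no coordinate was converted, so fragments were not placed on exons, introns or promoters. The window was cut into 3 parts of equal length, and the middle part stands for Ighg1 by this order of genes alone. Fragments are named F or R, for a forward or a reverse primer, with the primer number, which rises along the chromosome.

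The low part, on the Ighg2b side, held R44 at chr12:114539129-114547720, F46 at chr12:114551907-114557959 and R48 at chr12:114558042-114559615. F49 was the single fragment of the middle part. It spans chr12:114559616-114579798 and at 20183 bp is the longest of the 206 fragments, so positions within it could not be told apart. The high part, on the Ighg3 side, held F54 at chr12:114594537-114601396 and R55 at chr12:114601397-114612029. The 6 fragments cover 51.0 kb of the window, and the longest stretch without a probed fragment is the 14.7 kb between F49 and F54. The nearest fragments left out were F43, at chr12:114537058-114539128, and F58, at chr12:114614961-114617010. At the distance limit, F49 with R48 was just inside at 10.9 kb, with 13846 and 22474 counts in replicates 1 and 2, and R55 with F58 was just outside at 9.27 kb, with 5673 and 11414.

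The fragments differed in how much they yielded. R44 had the most counts over its 97 pairs, 147555 in replicate 1 and 232084 in replicate 2, and F46 the fewest in replicate 1, 46409, with 74021 in replicate 2. F49 had 119079 counts over 108 pairs in replicate 1 and 218495 in replicate 2, with 67.5 and 181 counts in its median pair. The median pair of F54 had 129 and 201 counts. Because primers differ in yield, fragments are compared below by log2 ratios, with the counts beside them.

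In the main model the section as a whole was no richer in pairs above their modelled level than the locus. By limma over all pairs, with a Benjamini-Hochberg adjusted p under 0.05 and a mean log2 ratio of at least 1, 44 section pairs were high (7.27%), against 8.03% of all pairs. 38 section pairs were low by the mirrored rule (6.28%), against 4.76% of all pairs. The model's primer terms hold each fragment's mean log2 ratio near 0, which limits any excess of the section as a whole. Without primer terms 237 of the 605 section pairs were high, against 1809 of all 10415 pairs. The high pairs of the main model lay close by. Of the 86 section pairs whose partner was in the constant region, from the 3'RR to Emu (numbers 28 to 81), 34 were high (39.5%) and 4 low, with mean log2 ratios of 0.73 in both replicates. The 145 constant region pairs that do not touch the section were alike in this, with 58 high (40%) and mean log2 ratios of 0.78 and 0.79. Both sets are made mostly of short distances and strong primers, and the replicates correlated with r = 0.94 (rho = 0.85) over the 86 section pairs. These include R44 with F40, at -6.42 and -5.92, an extreme value that weighs more on r than on rho.

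Along the chromosome the section's contacts rose at the 3'RR, stayed high through the constant genes and fell just past Emu. R24, the reverse fragment before the 3'RR, had mean log2 ratios with the section of -1.61 and -1.11 in replicates 1 and 2, and F25 after it -0.02 and -1.07. From F28 on, the first 3'RR fragment, the values were positive, 0.46 and 0.40, and they reached 1.67 and 1.51 at R33. At the other end R77, in Emu, stood at 1.38 and 1.49 and R81, the last Emu fragment, at 0.44 and 0.39. The next fragment, F82, had -0.62 and -0.58, and R83 had -0.91 and -0.96. Both replicates showed the step. Inside this stretch F40 stood apart with -2.18 and -1.83, which rests on the single pair described further below, and F43, F71, F76 and F78 lay near 0.

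**Figure D1:**
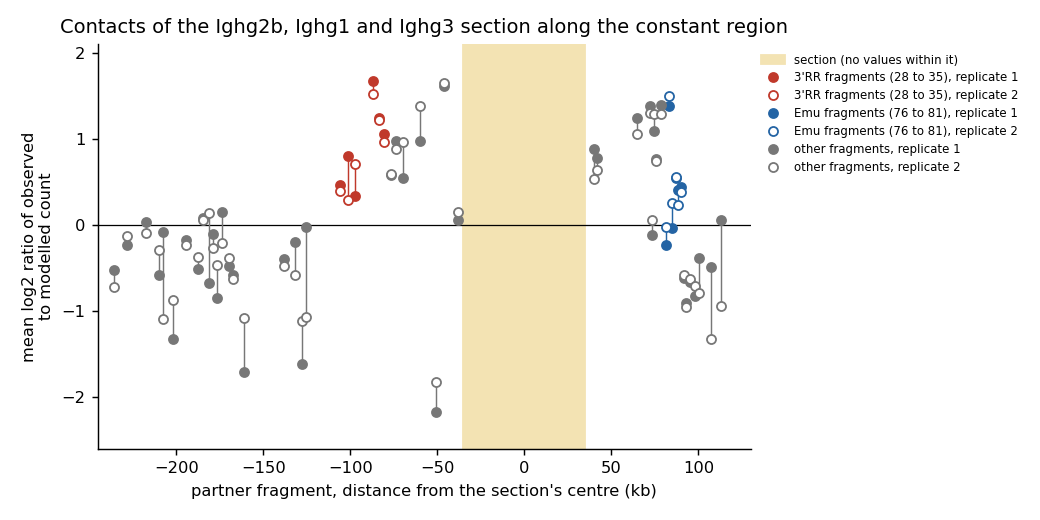
Mean log2 ratio of observed to modelled count over a partner fragment's pairs with the section, in each replicate, against the partner's distance from the section's centre in kb; filled circles are replicate 1, open circles replicate 2, and a line joins the 2. The 3'RR fragments (red) are above 0 in both replicates, Emu fragments (blue) range from -0.23 to 1.49, and all fragments from F82 to R90 are below 0.

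With the 3'RR, the section's contacts were above the modelled level in most pairs. The 6 fragments F28, R29, F31, R33, F34 and R35 lie at chr12:114465909-114496828, 50.9 to 137 kb from the section fragments. Their 18 section pairs held 22.0% and 21.7% of the section's counts though they are 2.98% of its pairs. The mean log2 ratio was 0.93 in replicate 1 and 0.85 in replicate 2 (0.89 ± 0.06, SD, n = 2), with 15 pairs above 0 in both replicates. By limma 9 were high (50%) and none low. The 538 other pairs of the locus in the same range of distances had means of -0.17 and -0.18, with 10.0% high and 18.4% low. With 2 replicates an exact sign-flip permutation test cannot go below p = 0.5, so these means carry no test. The size depends on the primer terms: the mean was 3.78 without them, 0.10 when ratios were divided by primer means instead, and 0.52 when the fit used only pairs up to 300 kb.

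Among the 3 forward fragments, which share the same 3'RR partners, F49, the Ighg1 part by gene order, had the highest 3'RR contacts. With R35 it gave 10406 and 12833 counts, log2 ratios of 2.41 and 1.70. The same R35 gave F46 1021 and 1328 counts (-0.20 and 0.07) and F54 5791 and 6554 counts (0.96 and 1.12). Here the 3 forward fragments did not overlap. With R33, the 3'RR partner of most counts for each of them, F49 had 15191 and 23668 counts (2.08 and 1.64), F46 7442 and 7950 (1.81 and 1.74) and F54 12131 and 13148 (1.12 and 1.15). F46 and F49 overlapped at R33 and both were above F54. With R29, where counts are lower, F49 had 941 and 1889 (1.42 and 0.75), F46 396 and 372 (0.97 and 0.13) and F54 570 and 899 (0.01 and -0.02).

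Averaged over these 3 partners, the log2 ratio was 1.67 ± 0.43 for F49 (SD, n = 2 replicates), 0.76 ± 0.15 for F46 and 0.72 ± 0.04 for F54. The last 2 do not differ beyond their spread. F49 exceeded both in each replicate of the main model, and the mean over replicates did so under all 12 settings tried. With the fit on pairs up to 300 kb, replicate 2 alone had F49 minus F54 at -0.036. The reverse fragments meet other 3'RR partners, F28, F31 and F34, and are ranked apart: R48, next to F49, stood at 1.20 ± 0.05, R44 at 0.68 ± 0.17 and R55 at 0.30 ± 0.02. For each of these 3 the highest partner was F34, with R48 at 4810 and 6397 counts (1.94 and 1.82), R44 at 6291 and 12245 (1.06 and 1.18) and R55 at 1479 and 1853 (0.73 and 0.66).

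Set as the middle part minus both outer parts, partner by partner, the difference in 3'RR contacts was 0.93 ± 0.37 on the log2 scale, 1.19 in replicate 1 and 0.66 in replicate 2. It was 1.41 without primer terms and 0.45 when fitted on pairs up to 300 kb, and 0.61 without R35, an omission chosen after seeing the data. The 1.41 joins a lead of 2.38 over F46 and one of 0.43 over F54.

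**Figure D2:**
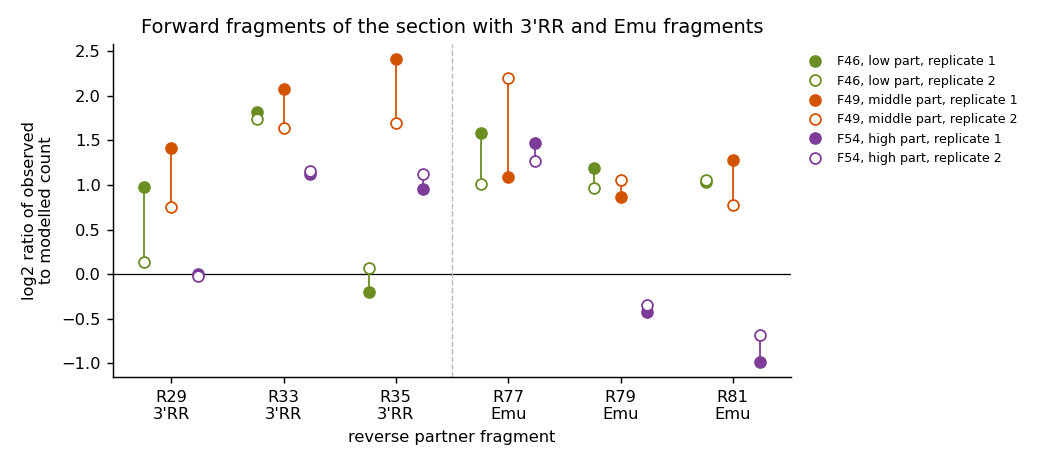
Log2 ratio of observed to modelled count for the forward section fragments F46, F49 and F54 with each reverse fragment of the 3'RR (left of the dashed line) and of Emu (right); filled circles are replicate 1, open circles replicate 2. F49 is highest at R29 and R35 of the 3'RR, where F46 is near 0 at R35, and F54 is below 0 at R79 and R81 of Emu.

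In the main model contacts with Emu split the section in another way, between the high part, mainly R55, and the rest. The 6 Emu fragments F76, R77, F78, R79, F80 and R81 lie at chr12:114656273-114667095, 50.8 to 121 kb from the section fragments. Their 18 section pairs held 6.53% and 5.61% of the section's counts. The mean log2 ratio was 0.42 and 0.48 (0.45 ± 0.05, SD, n = 2), with 13 pairs above 0 in both replicates. By limma 7 were high (38.9%) and 2 low (11.1%). The 440 other pairs at these distances averaged -0.14 and -0.16, with 9.77% high and 16.6% low. This mean turned to -0.28 when ratios were divided by primer means, and it was 1.82 without primer terms.

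On average the low and the middle part were above the modelled level with Emu, and the high part, which is nearest to Emu, was below it. Of the high part only R55 was below 0 on average, while F54 averaged 0.02 and 0.08. Without primer terms F54 (1.99) was above F46 of the low part (1.16). The low part averaged 0.85 in both replicates, with all 9 of its pairs above 0 in both. F49 averaged 1.08 and 1.34. The high part averaged -0.56 and -0.50, with 5 of its 6 pairs below 0 in both replicates.

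R55, on the Ighg3 side, was low with each Emu partner. With F76 it had 233 and 251 counts (log2 ratios -1.39 and -1.0), with F78 967 and 677 (-1.30 and -1.12) and with F80 658 and 531 (-0.76 and -1.12). The other reverse fragments lie farther from Emu and had more counts with the same partners: R48 with F80 had 1777 and 1713 (1.46 and 1.38), and R44 with F78 3574 and 3117 (0.58 and 0.88). Mean log2 ratios over the 3 partners were -1.12 ± 0.05 for R55, 0.89 ± 0.18 for R48 and 0.52 ± 0.003 for R44, which do not overlap. R55 was below 0 under 11 of the 12 settings. Low Emu values were not particular to R55. Reverse fragments nearer to Emu were also below 0 on average, with R61 at -0.82 ± 0.76, R70 at -1.01 ± 0.07 and R73 at -0.49 ± 0.05. R75 was near 0, at -0.04 ± 0.22. The forward fragments F58 (-0.70 ± 0.41), F68 (-0.76 ± 0.18), F71 (-2.03 ± 0.06) and F74 (-1.05 ± 0.36) were below 0 as well.

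F54 was mixed. With R77 it was high, at 1378 and 3436 counts (1.47 and 1.27), and with R79 (273 and 562 counts, -0.42 and -0.35) and R81 (3912 and 4190 counts, -0.98 and -0.68) it was below 0. Its mean over these 3 was 0.05 ± 0.04. F46 had 255 and 465 counts with R77 (1.59 and 1.01), 145 and 232 with R79 (1.19 and 0.96) and 2799 and 2371 with R81 (1.03 and 1.06). F49 had 258 and 1073 with R79 (0.87 and 1.05) and 7340 and 8412 with R81 (1.28 and 0.78). Its pair with R77 differed most between the replicates, at 403 and 4632 counts (1.09 and 2.2). The means of F49 (1.21 ± 0.19) and F46 (1.14 ± 0.18) do not differ beyond their spread.

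The middle part minus both outer parts was 0.62 ± 0.26 for Emu on the log2 scale, 0.43 in replicate 1 and 0.80 in replicate 2. Against the low part alone it was 0.07, and against the high part alone 1.16, so nearly all of the lead was over the high part. It was 1.11 without primer terms and 0.18 with the fit on pairs up to 300 kb.

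The balance of both regulatory regions differed between the section's fragments, of which forward and reverse ones meet different partners. The mean log2 ratio with the 3'RR minus that with Emu was 0.16 ± 0.17 for R44, -0.38 ± 0.03 for F46, 0.30 ± 0.13 for R48, 0.45 ± 0.62 for F49, 0.67 ± 0.003 for F54 and 1.41 ± 0.07 for R55. Of the 6 fragments R55 leaned most to the 3'RR, although it is nearer to Emu, and this came from its low Emu values and not from high 3'RR values. Such a lean was also seen outside the section, as at R70 (1.44 with the 3'RR, -1.01 with Emu) and F68 (1.54 and -0.76). For F49 the spread between replicates is larger than the value. Raw counts, not corrected for distance or primers, did not follow this order in both replicates. The 3'RR counts per Emu count were 3.74 and 7.83 for R44, 3.47 and 5.34 for R48 and 3.34 and 5 for R55. Among forward fragments they were 2.77 and 3.15 for F46, 3.32 and 2.72 for F49 and 3.32 and 2.52 for F54.

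Fragments numbered 20 to 91 were ranked by their contacts with the 3'RR, and F49 was 5 of 21 forward fragments. The 4 above it were F80 (3.39), F78 (2.38) and F76 (1.94), which are Emu fragments, and F74 (1.85) beside them. F46 ranked 10 and F54 11. The forward fragments next to the section were lower than F49: F43 averaged 0.29 ± 0.007 and F58 0.65 ± 0.28. Farther toward Emu, F68 stood at 1.54 ± 0.19 (rank 6), within the spread of F49 (1.67 ± 0.43). The reverse fragments R70 (1.44), R73 (1.68) and R75 (2.15) there exceeded R48 (1.20), the highest reverse fragment of the section. For Emu, F49 ranked 4 and F46 5 of 20 in the same range of numbers, after the 3'RR fragments F34 (3.50), F31 (3.31) and F28 (3.06). In these means, which carry no test, the 3'RR and Emu were higher with each other than either was with any section fragment.

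**Figure D3:**
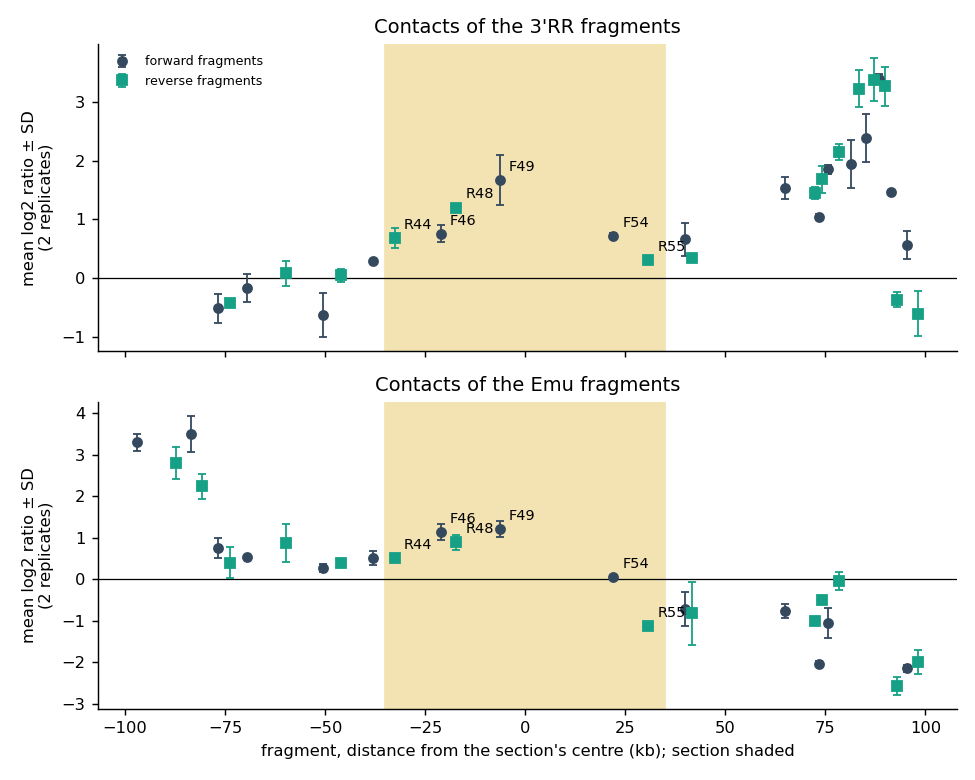
Mean log2 ratio (± SD over 2 replicates) of the 3'RR fragments (top) and the Emu fragments (bottom) with each fragment, against that fragment's distance from the section's centre in kb; circles are forward and squares reverse fragments, and the section is shaded. With the 3'RR, F49 (1.67) is the highest forward fragment of the section; with Emu, F49 stands at 1.21 and F54 at 0.05 among forward fragments, and R55 (-1.12) is the lowest reverse fragment of the section.

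A test by partner set F49 against each neighbouring forward fragment over the 107 reverse partners they share, with limma on the differences of log2 ratios. It was added after the data were seen. Against F46, F49 was higher with 2 partners (1.87% of 107) and lower with 1 (0.935%). The 2 were R35 in the 3'RR, where the difference was 2.12 (95% interval 1.03 to 3.20, adjusted p = 0.010), and R55, the section's own far end, where it was 1.81 (0.72 to 2.89, adjusted p = 0.047). The lower one was R552, whose counts were 0 and 21 for F49 and 4 and 6 for F46. Its limma adjusted p of 2.3e-05 was the smallest against F46, though the replicates differed, at -3.32 and -0.29. Differences at R29 (0.53, interval -0.72 to 1.78) and R33 (0.08, -0.90 to 1.06) did not pass. In Emu none passed, and at R81 the interval ran from -1.08 to 1.05 around -0.02. Without a variance trend R35 kept an adjusted p of 0.035, and R55 and R552 each had 0.054.

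Against F54, F49 was higher with 7 partners (6.54%) and lower with 3 (2.8%). In Emu these were R81, with a difference of 1.86 (0.92 to 2.80, adjusted p = 0.006), and R79, with 1.35 (0.45 to 2.25, adjusted p = 0.044). R75, next to Emu, differed by 1.40 (adjusted p = 0.044). The other higher ones were R10, R292, R342 and R733, and the lower ones R235, R606 and R695, all outside the constant region. None of the 3'RR partners passed: the differences were 1.09 at R29 (0.19 to 2.00, adjusted p = 0.086), 0.73 at R33 (-0.24 to 1.69, 0.28) and 1.02 at R35 (0.07 to 1.97, 0.12). They were positive in both replicates at all 3. Without a variance trend, R79 had an adjusted p of 0.074 and R75 of 0.065, and F49 was higher with 5 partners and lower with 5.

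**Figure D4:**
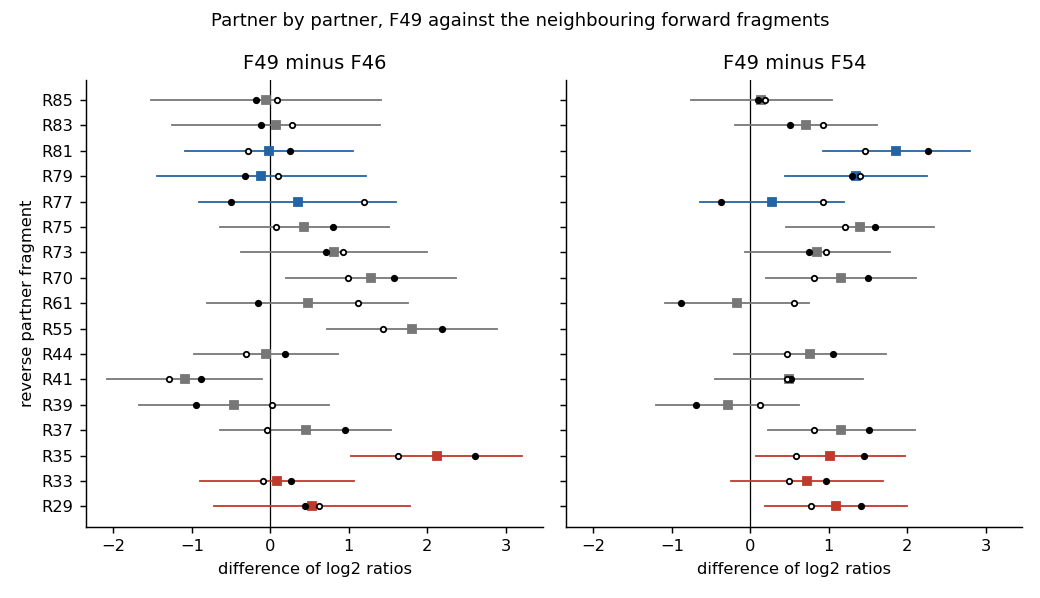
Difference of log2 ratios, F49 minus F46 (left) and F49 minus F54 (right), for each reverse partner from R29 to R85; squares are the means with 95% limma intervals, filled and open circles replicates 1 and 2, red the 3'RR and blue Emu. F49 exceeds F46 by 2.12 at R35 and is level with it at R81 (-0.02), while it exceeds F54 by 1.86 at R81.

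In the main model F49's lead was not limited to the 3'RR. Over the 3'RR partners it exceeded F46 by 0.91 ± 0.28 and F54 by 0.94 ± 0.47 (SD, n = 2). Over the 9 reverse partners numbered 37 to 75 that each comparison shares, it exceeded F46 by 0.41 ± 0.12 and F54 by 0.65 ± 0.05. Over the 10 partners numbered under 28 the leads were 0.49 ± 0.18 and 0.47 ± 0.16, and over the 82 partners past Emu F49 was lower, by -0.15 ± 0.04 and -0.23 ± 0.04. The primer terms hold each fragment's mean log2 ratio near 0, so a lead with near partners goes with a deficit over the far ones, and the deficit is no separate result. Without primer terms F49 exceeded F46 past Emu by 1.31 and was below F54 there by -0.72, and with numbers under 28 it exceeded F46 by 1.98 and differed from F54 by -0.07. With numbers 37 to 75 the leads without primer terms were 1.87 ± 0.54 over F46 and 0.15 ± 0.64 over F54. When fitted on pairs up to 300 kb, the 3'RR leads were 0.63 over F46 and 0.26 over F54. Under that fit the leads were small elsewhere, at 0.08 and 0.06 with numbers 37 to 75. With numbers under 28 they were 0.15 and -0.08.

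Within the section 7 pairs could be measured, and all were above 0 in both replicates, with 4 high by limma (57.1%, against 14.5% of other pairs at these distances). The highest pair of R44 was F46, with 16018 and 29312 counts (1.75 and 1.73). F49 was high with both ends. With R44 it had 18794 and 42691 counts (1.94 and 1.42), and with R55, 37 kb away, 10777 and 16234 (2.39 and 1.65). F46 with the same R55 had 917 and 1160 counts. F54 with R44, across 54.5 kb, had 9929 and 16137 (0.88 and 0.95).

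Of the 10 section pairs farthest above their modelled level, 8 stayed within the constant region and 2 reached past Emu. The highest was F46 with R41, 25.0 kb toward Igha at chr12:114528706-114531105, with 7754 and 17037 counts and log2 ratios of 2.37 and 2.67 (5.74-fold, limma adjusted p = 1.45e-30). F49 with R70, at chr12:114647312-114649351 near the Ighm end, followed among constant region pairs with 8946 and 11656 counts (2.40 and 1.91). F49 with R75, at chr12:114652514-114656272, had 7032 and 9402 (2.19 and 1.71). F49 took 5 of the 10 section pairs with the largest positive ratios, namely those with R70, R35, R55, R75 and R33. R48 took 3: with F34 of the 3'RR, and with 2 fragments past Emu, F117 at 234 kb (149 and 302 counts, 2.49 and 2.31) and F191 at 534 kb (247 and 464 counts, 1.88 and 2.12).

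Seen by partner group, the interval between the section and Emu (numbers 58 to 75) averaged 0.93 and 0.88 over 23 pairs, with 21 above 0 in both replicates. F49 led here too, with 1.65 and 1.68, and R55 was lowest, at 0.03 and -0.21. Toward Igha, numbers 36 to 43 averaged 0.38 and 0.56 over 20 pairs.

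One pair in that group stood far below all others. R44 with F40, at chr12:114522182-114528705 and 18.0 kb away, had 150 and 201 counts, log2 ratios of -6.42 and -5.92, the lowest mean of all 10415 pairs. Both fragments made many contacts elsewhere. R44 with F38, next along from F40 and 36.9 kb away, had 35640 and 42381 counts, and F40 with R48 had 4784 and 4393. Whether this pair was amplified and aligned as well as others was not tested, and the counts alone do not tell a rare contact from a product that was lost. Without this pair, an omission chosen after seeing the data, numbers 36 to 43 averaged 0.74 and 0.90.

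Beyond the 3'RR and beyond Emu the section was at or below its modelled level. The primer terms hold each fragment's mean log2 ratio near 0, so these values are not separate from the high ones in the constant region. Numbers under 28, past the 3'RR, averaged -0.49 in both replicates over 60 pairs, with 40 below 0 in both. None was high, against 10.5% of other pairs at these distances, and 8 were low (13.3%), near the 9.49% of other pairs, which averaged -0.01 and 0.01. R55 with F20 was among the lowest, at 149 and 140 counts (-2.26 and -1.77). F49 was the exception, at 0.08 and -0.24, while R44, F46, R48, F54 and R55 ranged from -0.81 to -0.41 in single replicates.

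Past Emu, in the D and VH segments, the section averaged -0.23 and -0.26 within 0.5 Mb of it and -0.04 and -0.20 at 0.5 to 1 Mb, over 75 pairs each. Of the nearer 75, 1 was high (1.33%, against 8.95% of other pairs at these distances) and 11 low (14.7% against 7.48%). At 1 to 2 Mb the mean was -0.01 and 0.09 over 192 pairs, with 8 high (4.17% against 7.05%) and 4 low (2.08% against 2.44%). Past 2 Mb it was -0.21 and -0.23 over 117 pairs, with none high (against 7.73%) and 8 low (6.84% against 4.37%). F49 was below its neighbours at 0.5 to 1 Mb, with -0.64 and -0.48, against 0.11 and -0.15 for the low part and 0.07 and -0.13 for the high part. The primer terms tie this deficit to the lead of F49 with near partners, so it is no separate result. Without primer terms, F49 minus F46 over all partners past Emu was 1.31, and F49 minus F54 was -0.72. These far pairs held 1.56% and 1.69% of the section's counts at 0.5 to 1 Mb, so single values rest on few counts.

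The others of the 10 lowest section pairs among those that limma called low mostly joined far partners at low counts. After R44 with F40 came F54 with R342 (1 and 27 counts, log2 ratios -4.33 and -0.91), R55 with F20, R55 with F9 (53 and 122 counts, -2.73 and -1.29) and F54 with R831 (85 and 37, -1.19 and -2.41). F49 with R286 had 19 and 56 counts (-1.80 and -1.53), F46 with R845 16 and 18 (-1.52 and -1.72) and R48 with F526 11 and 22 (-2.04 and -1.15). The last of the 10 were F54 with R292 (43 and 40 counts, -1.22 and -1.94) and R48 with F165 (38 and 53, -1.29 and -1.85). All but R55 with F20 and with F9 lay past Emu, 417 to 2781 kb from the section fragment. The lowest partner of F49 was R552 (0 and 21 counts, -2.88 and -0.94), which did not pass (limma adjusted p = 0.068).

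By a rule that uses raw counts and distance alone, no section pair was called. The rule takes pairs whose count lies above the curve of counts by distance at a Weibull q under 0.01 in both replicates, and it called 25 of all 10415 pairs (0.24%), a share at which the 605 section pairs would hold few. Only in replicate 2 were 2 section pairs called, R44 with F334 (469 and 734 counts, 1056 kb) and R44 with F415 (576 and 719 counts, 1276 kb). At an unadjusted Weibull p under 0.05 in both replicates, 23 section pairs passed (3.8%), against 1.62% of all pairs. The other tool, limma, called the 44 high pairs given above. R44 with F415 was called in both replicates at a q under 0.05 or with a curve of span 0.1.

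**Figure D5:**
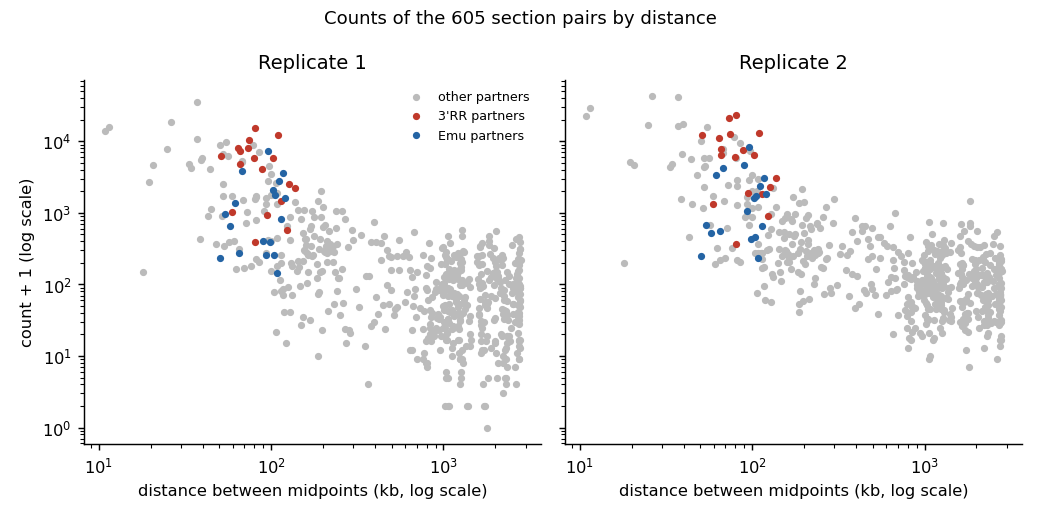
Count plus 1 of each of the 605 section pairs against the distance between fragment midpoints in kb, both on log scales, in replicate 1 (left) and replicate 2 (right); red points are pairs with the 3'RR, blue points pairs with Emu. At the same distances the 3'RR pairs reach 15191 and 23668 counts, and the Emu pairs 7340 and 8412.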

How the data were processed

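The values are counts of sequenced ligation products per primer pair as the authors deposited them, not normalized, with 1 matrix for each replicate. The submitters' processing notes name Novoalign, whose version is not given in the sources used here, and mm9. A step called transpurge stands in the file headers, which also give the fragment positions. Both hold 98 forward and 108 reverse Igh fragments; the gene desert control region of the series description was not analysed here.

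From these counts, log2(count + 1) was modelled in each replicate as a lowess curve (span 0.3) of log10 distance plus a term for each primer, over all pairs at least 10 kb apart. limma 3.58.1 (R 4.3.3; intercept, eBayes with variance trend) tested the residuals of all pairs over 2 replicates, with Benjamini-Hochberg adjustment; a pair was called at an adjusted p under 0.05 and a mean log2 ratio at or past 1. The Weibull rule used SciPy 1.17.1 and statsmodels 0.14.6. The code was tested on simulated data. The 6 section, 6 3'RR and 6 Emu fragments are named, as are the 10 most changed section pairs of each call rule and each fragment's extremes. Members, lists and tests were chosen with earlier results of these data known. Alternatives changed the primer terms, the curve, the distance range, the pseudocount, low counts and the fragments used.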

Additional observations from a re-analysis of the deposited data

How the results depend on the processing

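Without primer terms 237 of 605 section pairs were high and 15 low, against 44 and 38 in the main model. Over all 10415 pairs, 1809 were high and 1386 low without primer terms, against 836 and 496. The fit on pairs at most 300 kb apart called 15 high and 15 low, and it tested only 196 of the 605 section pairs. Over all 2107 pairs it tested, 191 were high and 192 low. With a mean count of at least 10 there were 20 low among 598 section pairs, against 259 among all 9538. The Weibull rule called 1 section pair with a span of 0.1 and 1 at a q under 0.05, against 29 and 31 of all pairs. Without replicate 1 it called 2 section pairs of 38 in all, and without replicate 2 it called 0 of 45. The mean 3'RR log2 ratio of 0.89 became 3.78 without primer terms, 0.10 with primer means of ratios, 0.97 with section pairs of the 3'RR and Emu left out of the fit, 0.95 with span 0.1, 0.52 up to 300 kb, 1.09 with a pseudocount of 5, 1.01 with a mean count of at least 10 and 0.98 without fragment 28; leaving out single replicates gave 0.85 to 0.93. The mean Emu log2 ratio of 0.45 reversed to -0.28 with primer means of ratios, and became 1.82 without primer terms, 0.52 with section pairs left out, 0.52 with span 0.1, 0.31 up to 300 kb and 0.53 with a pseudocount of 5; single replicates gave 0.42 to 0.48. The middle part's lead became 1.41 without primer terms and 0.45 up to 300 kb for the 3'RR (single replicates 0.66 to 1.19). For Emu it became 1.11 and 0.18 under the same settings, 0.071 against the low part and 1.16 against the high part (single replicates 0.43 to 0.80). The cause was not tested. Primer means of ratios moved the median log2 ratio of all pairs by -0.47 and -0.40, which was centred out. No paired analysis was possible because there is 1 group. The 2 replicates of that group limit the precision, and the far pairs of the section, with few counts each, limit what single values show.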
